A study of Sus scrofa domesticus with 4 samples.

Results

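Interferon signalling factors and their feedback regulators were followed in pig myometrium, the muscle layer of the uterus, cultured with or without the neuropeptide orexin B. The set holds 9 genes: the transcription factors STAT2, IRF1, IRF3 and IRF7, the ubiquitin-like modifier ISG15, the protease USP18, the signalling inhibitors SOCS1 and SOCS3, and the kinase EIF2AK2. Every non-control probe whose RefSeq mRNA accession belongs to a listed gene was taken, which gave 15 of 43603 probes and 8 of the 2970 genes that could be named on the array. SOCS1 had no matched probe and was not analysed here. STAT2 had 5 probes, IRF1, IRF3 and USP18 had 2 each, and IRF7 (probe A_72_P077861), ISG15 (probe A_72_P441219), SOCS3 (probe A_72_P185956) and EIF2AK2 (probe A_72_P441748) had 1 each.

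The explants came from mature gilts (Large White x Polish Landrace, 7-8 months of age) on days 15 to 16 of gestation. After 2 h of preincubation, slices were given orexin B at 10 nM for 24 h, and the control slices were left untreated in the same medium. Cultures were made in duplicate in 4 experiments, for 4 gilts, per the labels. Each of 4 Agilent arrays, here arrays 1 to 4, took treated and untreated RNA in different colours. By the dye label of each sample, RNA from orexin B cultures was in Cy5 on array 1 and array 3 and in Cy3 on the other two, although the protocol text names only the former orientation. Arrays 2, 3 and 4 shared a slide. Ratios are log2 values of orexin B divided by untreated, after background correction and loess, and each mean carries its moderated standard error over the 4 arrays. The labels do not tie an array to a gilt, so a p-value covers only how these 4 arrays vary.

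Type I interferons signal through a receptor whose kinases phosphorylate STAT proteins, among them STAT2. With IRF9, STAT2 enters a complex that binds interferon-stimulated response elements and turns on genes such as IRF7, ISG15, USP18 and EIF2AK2. IRF3 and IRF7 act upstream, switching on interferon genes after RNA or DNA is sensed, while IRF1 is induced mainly by interferon gamma. USP18 and the SOCS proteins damp the same pathway. Around implantation the pig conceptus secretes interferons gamma and delta, and the uterus responds with interferon-stimulated genes.

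Of the 15 probes, 14 passed the brightness filter (well above background on all 4 arrays in at least 1 of the RNA groups), and they covered 7 genes. The SOCS3 probe did not pass. The mean ratio was above 0 for 11 of the 14 probes and below 0 for 3, beside 54.1% above 0 among all 19881 tested probes. By the brightest probe, 6 of the 7 genes were above 0. The median over the 14 probes was 0.21, beside 0.02 over all tested probes. After Benjamini-Hochberg adjustment of limma's p-values, no member probe was under 0.05, and neither was any other probe (0%, smallest adjusted p = 0.596). Before adjustment 4 member probes were under 0.05, all with ratios above 0, of ISG15, IRF7 and USP18 (both probes). The dimmer USP18 probe passed the filter only in the orexin B channel, which favours ratios above 0. Over all tested probes the share under 0.05 was 7.72% in either direction, 4.31% higher and 3.41% lower. Ratios were above 0 on all 4 arrays for 5 member probes, among them the dimmer USP18 probe, beside 8.92% of all tested probes. They were below 0 on all 4 for 0 member probes, beside 7.08%. With median centring in place of loess, the probes at an unadjusted p under 0.05 were 1 member probe, the one of EIF2AK2, and 177 of all probes, 172 of them higher and 5 lower. With loess, 856 of all probes were higher and 678 lower at that threshold.

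**Figure D1:**
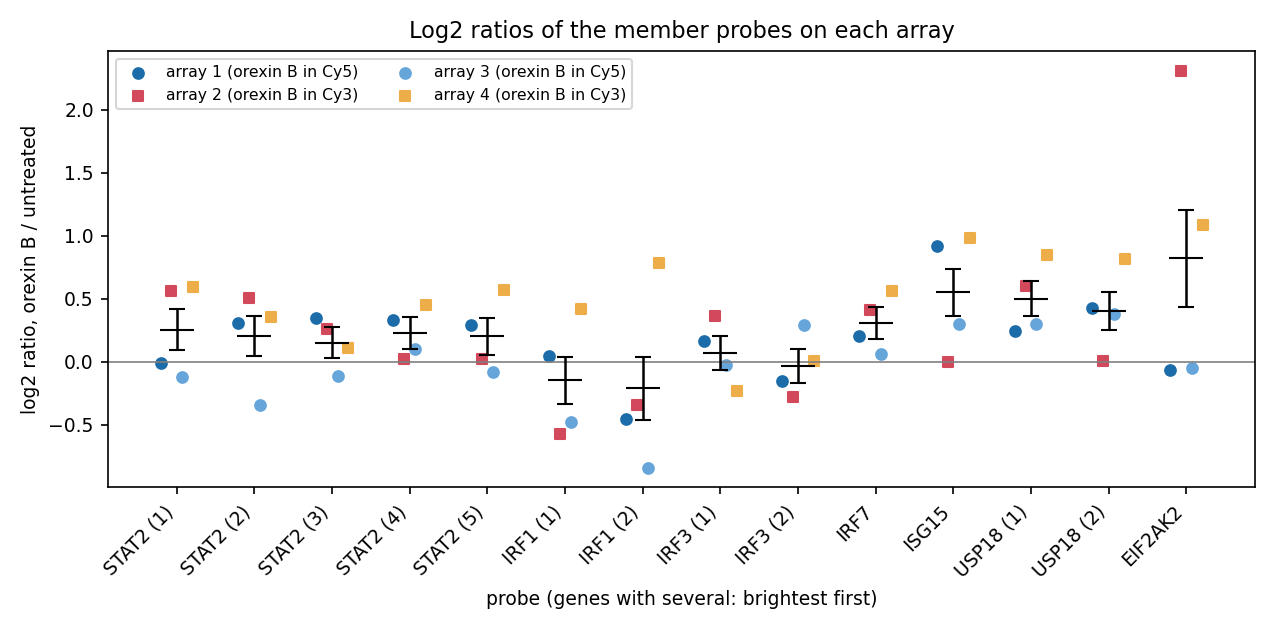
Each point is the log2 ratio of orexin B over untreated for 1 of the 14 tested probes on 1 array, with circles where orexin B RNA was in Cy5 and squares where it was in Cy3; the black bar is the mean and its moderated standard error. USP18, ISG15 and IRF7 lie at or above 0 on all 4 arrays, while EIF2AK2 is at 2.31 and 1.09 on arrays 2 and 4 and just below 0 on the others.

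Explants held RNA of the labelled tissue and of other cells. All 6 measured smooth muscle markers, among them ACTA2, DES and CNN1, were well above background on all 4 arrays in both channels. The epithelial markers EPCAM and SPP1 were too. Of the other epithelial markers, KRT8 was so on 4 arrays with orexin B and 3 without, CDH1 on 3 and 3, and CLDN4 on 2 and 3. The B cell markers CD79A and MS4A1 were above background on 0 arrays. In such tissue, fewer cells of a type and less RNA per cell cannot be told apart. The share of probes well above background was 48.7% to 54.3% in the orexin B channel and 37.6% to 58.2% in the untreated channel. The number of arrays limits the precision.

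The smallest p-values among the members belonged to ISG15 and USP18. ISG15 encodes a small modifier that is joined to other proteins and is also secreted. Its ratios on arrays 1 to 4 were 0.92, 0.00085, 0.30 and 0.98. The mean was 0.55 ± 0.19, or 1.46-fold (95% interval 0.11 to 1.00 on the log2 scale, unadjusted p = 0.0221, adjusted p = 0.596). Arrays 1 and 4 were thus well above the others, and array 2 showed no difference between the channels. The log2 intensity of the probe was 16.97, 17.92, 17.37 and 17.70 in orexin B RNA and 16.05, 17.92, 17.07 and 16.72 in untreated RNA. The ranges of the groups overlapped, and array 2 had the highest level of both.

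ISG15 was among the brightest features of the array, at percentile 99.3 of mean intensity over tested probes, although it was saturated on 0 arrays. Its ratio depended on how dye bias was handled, as did those of dimmer members such as IRF7 (percentile 65.7). With Agilent's own processed signals the array ratios were 0.78, 0.16, 0.16 and 1.24, all above 0. With median centring in place of loess, which leaves intensity-dependent dye bias in the ratio, they were 2.21, -1.89, 1.30 and -0.18. Under that setting the mean was 0.36 ± 0.67. With loess, leaving out an array gave means from 0.41 to 0.73. Limma's unadjusted p was above 0.05 without array 1 (mean 0.43) and without array 4 (mean 0.41), and under 0.05 without array 2 (mean 0.73) and without array 3 (mean 0.63).

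USP18, which removes ISG15 from proteins and also blocks the type I interferon receptor, had mean ratios above 0 by both of its probes. The brighter probe (A_72_P077621) gave 0.25, 0.60, 0.30 and 0.85 on arrays 1 to 4, with a mean of 0.50 ± 0.14, or 1.41-fold (unadjusted p = 0.00906, adjusted p = 0.596). This was the smallest unadjusted p among the members and ranked 274 of 19881. The dimmer probe (A_72_P417087) gave 0.42, 0.0024, 0.38 and 0.81, with a mean of 0.40 ± 0.15 (unadjusted p = 0.0322, adjusted p = 0.621). Both probes were highest on array 4. They parted most on array 2, where the brighter read 0.60 and the dimmer almost 0. In untreated RNA the dimmer probe passed the background limit on 3 of 4 arrays, so it passed the filter through the orexin B channel alone. With Agilent's processed signals its mean was 0.73, and array 2 read -0.12. With an array left out, the brighter probe stayed under an unadjusted p of 0.05 in all 4 cases (means 0.38 to 0.58), and the dimmer one only without array 2 (0.54); its other means were 0.27 to 0.41. With median centring in place of loess, the brighter probe read 1.22, -0.87, 1.00 and 0.082 on arrays 1 to 4. Its mean was then 0.36 ± 0.39 (limma's unadjusted p = 0.394). The dimmer probe read 0.74, -0.59, 0.60 and 0.61 under that setting, a mean of 0.34 ± 0.29. The 2 probes target the same mRNA and are not replicates of the treatment.

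IRF7, the interferon-inducible amplifier of type I interferon transcription, was above 0 on every array. Its ratios were 0.20, 0.41, 0.064 and 0.56 on arrays 1 to 4, with array 3 nearest to 0. The mean was 0.31 ± 0.13, or 1.24-fold (95% interval 0.0056 to 0.61, unadjusted p = 0.0469, adjusted p = 0.641). Its log2 intensity was 10.10, 11.94, 10.46 and 10.52 with orexin B and 9.90, 11.53, 10.39 and 9.96 without. The spread between arrays in either group was wider than the difference on any array, and array 2 was the highest in both groups. With median centring the arrays read 0.83, -0.63, 0.46 and 0.17, and the mean was 0.21 ± 0.29. With an array left out it ran from 0.23 to 0.39, and the unadjusted p was under 0.05 only without array 3.

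IRF3, the constitutive partner of IRF7 that waits in the cytoplasm for phosphorylation, had ratios on both sides of 0. The brighter probe (A_72_P442884) gave 0.16, 0.36, -0.027 and -0.23, a mean of 0.07 ± 0.13 with a 95% interval of -0.25 to 0.38. The dimmer probe (A_72_P165194) gave -0.15, -0.28, 0.29 and 0.0065, a mean of -0.03 ± 0.13. The probes had opposite signs on all 4 arrays, and their mean per array ran only from -0.11 to 0.13. The brighter probe's interval holds mean ratios down to -0.25 and up to 0.38, so IRF3 was not shown to be unchanged.

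IRF1, an early target of interferon gamma and a tumour suppressor, was the only gene whose brightest probe had a mean below 0. That probe (A_72_P177721) read 0.043, -0.58, -0.48 and 0.42 on arrays 1 to 4, with a mean of -0.15 ± 0.19 (adjusted p = 0.867). The second probe (A_72_P536281) read -0.45, -0.34, -0.84 and 0.79, with a mean of -0.21 ± 0.25 (adjusted p = 0.863). Both were below 0 on arrays 2 and 3 and clearly above 0 on array 4. With an array left out, the mean of the brighter probe ran from -0.34 (without array 4) to -0.0067 (without array 2). That of the second probe ran from -0.54 (without array 4, limma's unadjusted p = 0.0158) to -0.0027 (without array 3). For the brighter probe, the log2 intensity with orexin B was nearly the same on all arrays (13.26, 13.29, 13.28 and 13.45), and the untreated channel varied (13.22, 13.86, 13.76 and 13.04). The second probe did not show this. It varied with orexin B (11.44, 12.27, 12.04 and 12.58) as well as without (11.89, 12.61, 12.88 and 11.79).

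**Figure D2:**
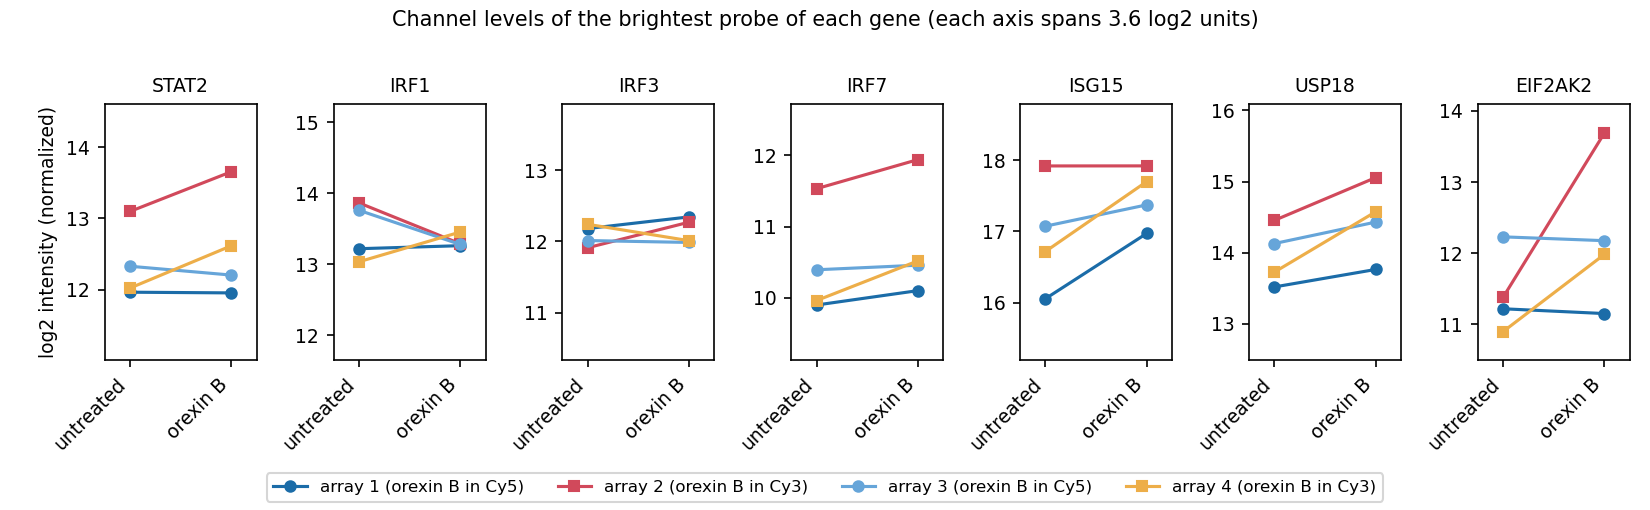
Normalized log2 intensity of the brightest probe of each tested gene in untreated and in orexin B RNA, with a line for each array; all axes span the same number of log2 units, and levels of different probes are not comparable. Lines for USP18 and IRF7 slope upward on all 4 arrays, those of IRF1 converge in the orexin B channel, and the line of EIF2AK2 is steepest on array 2.

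STAT2, the transactivating subunit of the interferon-induced complex, was read by 5 probes over a wide range of brightness (percentiles 46.2 to 84.2 of tested probes). All 5 means were above 0, between 0.15 ± 0.13 and 0.25 ± 0.16, and none had an unadjusted p under 0.05. Without array 3 the second brightest (A_72_P088106) had 0.39 with an unadjusted p of 0.0317. Over all 4 arrays, the smallest adjusted p among the 5 was 0.716. The brightest probe (A_72_P651117) read -0.0096, 0.56, -0.12 and 0.59 on arrays 1 to 4. A dimmer probe (A_72_P516487) was the only one of the 5 above 0 on every array, at 0.33, 0.025, 0.10 and 0.45. Averaged over the 5 probes, the arrays read 0.25, 0.27, -0.11 and 0.42, so array 3 was the exception. The mean of these was 0.21 ± 0.13 (adjusted p = 0.747), or close to the value of every single probe.

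Probes of the same gene could be compared within an array. For STAT2 the SD between probes within an array averaged 0.19, beside an SD of 0.22 between the array means. For USP18 these values were 0.16 and 0.25, and for IRF1 0.26 and 0.55. For IRF3 the order was turned, with 0.27 between probes and 0.10 between arrays. Values of IRF7, ISG15 and EIF2AK2 rest on 1 probe each and had no such check.

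EIF2AK2 encodes PKR, the kinase that is activated by double-stranded RNA and halts translation by phosphorylating the initiation factor eIF2. It had the largest mean of all members, 0.82 ± 0.38, or 1.76-fold, at percentile 99.7 of all tested ratios. The 4 arrays read -0.067, 2.31, -0.054 and 1.09 (95% interval -0.085 to 1.72, unadjusted p = 0.0694, adjusted p = 0.665). The mean therefore came from arrays 2 and 4, and arrays 1 and 3 lay just below 0. On array 2 the processed signal was 12513 with orexin B and 2548 without. On array 4 it was 3329 and 1533. Without array 2 the mean was 0.32, and without arrays 1, 3 and 4 in turn it was 1.11, 1.11 and 0.73. Limma's unadjusted p was 0.0317 without array 1 and 0.0356 without array 3, and above 0.05 without array 2 or array 4.

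Arrays 2 and 4 were those with orexin B RNA in Cy3, and the EIF2AK2 means by orientation were -0.061 in Cy5 and 1.70 in Cy3. In a fit with dye as a further term the orexin B part was 0.82 ± 0.20 (adjusted p = 0.221) and the dye part was -0.88 (adjusted p = 0.235). Limma's unadjusted p in that fit was 0.00507 for the orexin B part and 0.00353 for the dye part. With median centring in place of loess the arrays read 0.68, 1.16, 0.45 and 0.61, all above 0, with a mean of 0.72 ± 0.21. Next in the gap between orientations was the second IRF1 probe, at -0.65 in Cy5 and 0.22 in Cy3. USP18 read 0.27 in Cy5 and 0.73 in Cy3 by its brighter probe and 0.40 and 0.41 by the other. ISG15 read 0.61 and 0.49, IRF7 0.13 and 0.48, and the brightest STAT2 probe -0.067 and 0.58. The dye part had an adjusted p of at least 0.235 for all 14 probes.

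**Figure D3:**
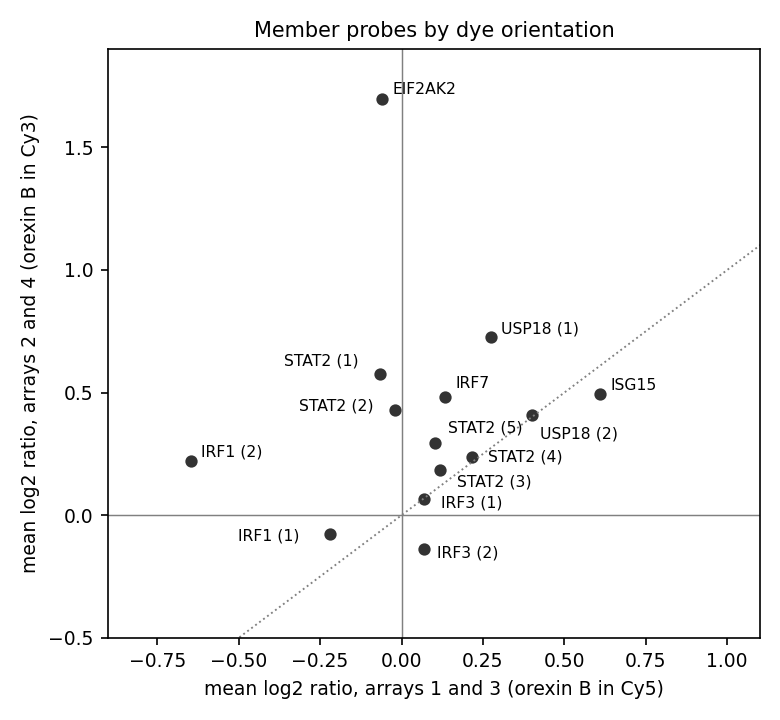
Mean log2 ratio of each tested member probe where orexin B RNA was in Cy5 (arrays 1 and 3, horizontal) and where it was in Cy3 (arrays 2 and 4, vertical); numbers in brackets rank a gene's probes from the brightest. ISG15 and the second USP18 probe lie near the dotted line of equal values, and EIF2AK2 lies far above it at -0.061 and 1.70.

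SOCS3, an inducible inhibitor of JAK kinases, was too dim for a ratio. Its probe was well above background on 1 of 4 arrays with orexin B and on 2 of 4 without. Before background correction, the spot signal was higher in Cy3 than in Cy5 on every array. In the Cy3 channel its median signal was 216, 225, 266 and 262 on arrays 1 to 4, whichever RNA it held. In the Cy5 channel it was 112, 171, 155 and 113. Agilent's processed signals did not keep that order, at 22.2, 29.6, 30.1 and 33.4 in Cy3 and 33.3, 48.3, 28.4 and 33.2 in Cy5.

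Ratios of members on the same array share its labelling and hybridisation, so their order was set side by side. By the brightest probes, 7 of the 21 pairs of member genes kept their order on all 4 arrays (33.3%), beside 17.3% of all pairs of named genes. USP18 exceeded STAT2, IRF1, IRF3 and IRF7 on every array, and IRF7 exceeded IRF1 and IRF3. ISG15 exceeded IRF1 by 0.88, 0.58, 0.78 and 0.57 on arrays 1 to 4, a mean of 0.70 with an SD of 0.15 over the arrays. With loess, this was the steadiest of the gaps to IRF1. With median centring it was not steady. ISG15 then read 2.21, -1.89, 1.30 and -0.18 on arrays 1 to 4, and IRF1 read 0.98, -1.88, 0.13 and -0.23. EIF2AK2 kept its order with no other member. With median centring in place of loess, USP18 read -0.87 on array 2, below STAT2 (-0.72), IRF3 (-0.73) and IRF7 (-0.63). On array 1, IRF7 then read 0.83, below IRF1 (0.98) and IRF3 (1.01). Under that setting USP18 stayed above IRF1 on every array. With loess, the dimmer USP18 probe read 0.0024 on array 2, below STAT2 (0.56), IRF3 (0.36) and IRF7 (0.41).

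By array, the medians of the 7 member genes were 0.16, 0.41, -0.027 and 0.59. On array 4, 13 of the 14 probes were above 0, on array 2 it was 11, on array 1 it was 10, and on array 3 it was 6. Over all tested probes the share above 0 was 53.8%, 52.0%, 50.6% and 50.5% on arrays 1 to 4. Array 3 thus stood lowest for the members. It was also the array with the lowest median of 3 epithelial markers, -1.49, against 0.43, -0.26 and 1.11 on arrays 1, 2 and 4. Whether RNA of any of these cell types had a part in the member ratios was not tested.

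The ligands and receptors of the pathway gave little. The probes of IFNG, IFNA1, IFNB1 and IFNE were not well above background on any array (0 of 4 arrays with either RNA), and IFND was not matched. Of 8 tested receptor and kinase genes 4 were above 0, with a median of -0.0058 and 0 at an unadjusted p under 0.05. The type I receptor chains IFNAR1 and IFNAR2 had 0.0030 ± 0.12 and 0.24 ± 0.22, and the interferon gamma receptor chains IFNGR1 and IFNGR2 had -0.11 ± 0.12 and -0.015 ± 0.15. The kinase JAK2 had 0.45 ± 0.25, with 1.39 on array 3, where its other probe read 0.0024, and JAK1 had -0.13 ± 0.12.

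Among other STATs and interferon regulatory factors, IRF9, the DNA-binding subunit of the complex that holds STAT2, had 0.08 ± 0.13. STAT3, the main mediator of interleukin 6 signalling, had 0.69 ± 0.39, but array 2 alone read 2.41 and the other 3 arrays lay between -0.075 and 0.41. The other STAT3 probes read 0.19, 0.43 and -0.30 on array 2. STAT6, which acts in interleukin 4 signalling, had -0.13 ± 0.15.

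Upstream of IRF3 and IRF7, 6 of 8 tested sensors and adaptors were above 0 with a median of 0.24, and 2 had an unadjusted p under 0.05. These were the RNA sensor IFIH1, at 0.45, 1.56, 0.32 and 1.53 (mean 0.96 ± 0.24), and its relative DHX58, at 0.47, 0.58, 0.024 and 0.85 (mean 0.48 ± 0.15). TRAF6, a ubiquitin ligase of Toll-like receptor signalling, had 0.25 ± 0.14, and the endosomal RNA receptor TLR3 had 0.23 ± 0.15. IFIH1 and DHX58 are themselves interferon-inducible. Genes that join ISG15 to proteins (UBA7, UBE2L6, HERC5, HERC6 and TRIM25) had no matched probe.

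Inhibitors outside the member set had a median of -0.035, with 2 of 5 tested genes above 0 and 0 at an unadjusted p under 0.05. The phosphatase PTPN1 had 0.30 ± 0.15, and SOCS6, SOCS5 and SOCS2 had 0.10 ± 0.14, -0.12 ± 0.18 and -0.074 ± 0.17. Downstream of eIF2 phosphorylation, the stress factor DDIT3 had 0.37 ± 0.17 and ATF4 0.18 ± 0.21, and the PKR inhibitor DNAJC3 had 0.17 ± 0.14. On array 2, where EIF2AK2 was highest, DDIT3 and ATF4 read -0.062 and -0.22 and DNAJC3 read 0.33.

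Interferon-stimulated effectors had 16 of 17 tested genes above 0, with a median of 0.37, and 5 at an unadjusted p under 0.05, all higher. Of the 5, OASL passed the filter only in the orexin B channel. IFIT3, an RNA-binding antiviral protein, had 1.36 ± 0.28 and RSAD2, the antiviral enzyme viperin, 1.56 ± 0.45. The antiviral GTPases MX2 and MX1 had 0.87 ± 0.26 and 0.54 ± 0.17. The medians of this list on arrays 1 to 4 were 0.54, 0.83, -0.086 and 0.86, so array 3 was lowest here as among the members. Over all 1958 named genes by their brightest probe, 53.8% were above 0 and 10.5% had an unadjusted p under 0.05.

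**Figure D4:**
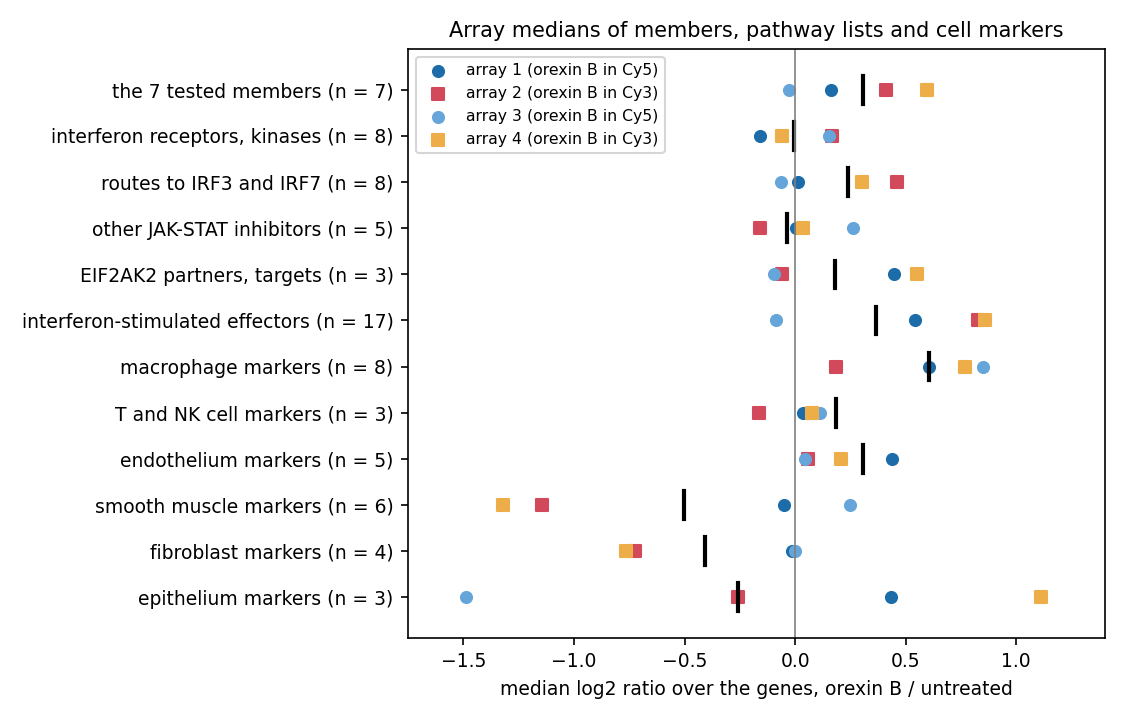
Median log2 ratio over the genes of each list shown, on each array (points) and the median of the genes' means (vertical bars), with the number of tested genes in brackets. The members and the interferon-stimulated effectors are lowest on array 3, and the macrophage markers are highest there at 0.85. The smooth muscle markers are low on arrays 2 and 4, where orexin B RNA was in Cy3.

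The ISG15 probe was set beside the 1957 other named genes for likeness over the 4 arrays. The smallest root mean square differences of the log2 ratio were 0.23 for NME1, 0.27 for IFRD1 and 0.27 for IFI44. NME1 read 0.50, -0.16, 0.36 and 0.93, IFRD1 read 0.66, -0.23, -0.11 and 0.95, and IFI44 read 0.39, -0.043, 0.26 and 0.86. All 3 were low on array 2 and highest on array 4. With SOCS3 untested, no likeness was computed for it.

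Markers of other cell types moved between the channels as well. Macrophage markers had 8 of 8 tested genes above 0, with C1QC past the filter only in the orexin B channel. Their median was 0.61, with 7 at an unadjusted p under 0.05, all higher. Their summed normalized intensity ran from 6751 to 16272 with orexin B and from 3973 to 9529.7 without, and the marker SIGLEC1 was above background on 0 arrays. Their array medians were 0.61, 0.18, 0.85 and 0.77, highest on array 3, where the members were lowest. Smooth muscle markers had 0 of 6 above 0, a median of -0.50 and, on arrays 1 to 4, medians of -0.049, -1.15, 0.25 and -1.32, and their summed intensity ran from 228373 to 628886 with orexin B and from 397844 to 812206 without. Their low arrays, 2 and 4, are those where EIF2AK2 was high. Endothelial markers had 4 of 5 above 0 and a median of 0.31, with 2 at an unadjusted p under 0.05, both higher. Fibroblast markers had 0 of 4 above 0 and array medians of -0.016, -0.72, -0.0016 and -0.77, also lowest on arrays 2 and 4. Their median was -0.41, with 1 at that threshold. Smooth muscle, T and NK cell markers had 0 at it. Of T and NK cell markers, 2 of 3 tested were above 0 (median 0.18), while CD3D and CD4 were above background on 0 arrays. Those 2, NKG7 and CD3G, were above background on 4 arrays with orexin B but on 3 and 2 without. They passed the filter through the orexin B channel alone, which favours ratios above 0. GZMB, on 4 arrays in both channels, had -0.042. The neutrophil markers S100A8 and S100A12 had means of 0.36 and 0.27, and S100A8 ran from -2.01 on array 3 to 2.33 on array 2. S100A12 also passed the filter only in the orexin B channel. The part of these cells in the member ratios was not tested.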

How the data were processed

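Per the file headers, the 4 deposited scanner files give intensity (median pixel brightness of spot and local background, green and red, and processed signals) from Agilent Feature Extraction 10.7.3.1, with a log10 ratio of red over green that was not used here. The deposited series table holds log2 ratios; after turning arrays 2 and 4, 100% of its values matched the processed signals within 0.01, with column medians of -0.27, -0.08, -0.20 and -0.09. Coordinates are not given, as the build is not given in the sources used here.

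Median signals were corrected with normexp (offset 50) and loess was run on each array with weight 0 for control spots (R 4.3.3, limma 3.58.1). Spots marked as outliers (31 to 138 per array) were left out. Probes well above background on all 4 arrays in either RNA group, with an unmarked spot on at least 3 arrays, were fitted (19881 of 43603). An intercept model on the ratios, turned by the dye labels, was fitted with lmFit and eBayes, two-sided, with Benjamini-Hochberg adjustment over all tested probes. Channel levels used Aquantile. RefSeq accessions matched 6697 probes, 6597 of them to a gene symbol (Sscrofa11.1 table). The fit was tested on simulated ratios. An exact sign-flip test of 4 arrays cannot go below p = 0.125, which ISG15, IRF7, both USP18 probes and 1 STAT2 probe reached.

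The members and lists were chosen with earlier results of these data known. All member probes are named; of each pathway list the 4 genes with the smallest p are, with the receptors and IRF9, except genes that are not reported here. Figures used Python 3.11.15 and matplotlib 3.10.9.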

Additional observations from a re-analysis of the deposited data

Results flagged for a closer look

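Of 40 sets of 4 array values, those of the 14 member probes and of the named pathway genes, 0 held an array that stood apart from the others by Dixon's 95% critical value, where chance gives about 2. The value of 2.41 for STAT3 on array 2 and of 2.31 for EIF2AK2 on the same array stayed within that bound.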

How the results depend on the processing

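In limma's moderated test, no probe passed the adjusted threshold under any alternative run. The 1534 probes at an unadjusted p under 0.05 became 177 with median centring, 2302 without the filter on dim probes and 2382 with dye as a further term, and ran from 727 (without array 4) to 1922 (without array 3) when each array was left out. The count of 4 member probes at that threshold became 1 with median centring, with the unmoderated test and with Cy5 over Cy3 unturned. It was 2 with the strict filter and on the shared slide (the fit without array 1), and 2 to 5 with an array left out. The probes counted were not always the same. EIF2AK2 entered with median centring, with Agilent's processed signals or the series table, with dye as a further term and without array 1 or 3. With the ratios unturned it was the 1 probe counted, with a mean of -0.88. Without array 3 the second brightest STAT2 probe entered too. Without array 4 the second IRF1 probe entered, with a mean below 0. Member probes above 0 ran from 10 to 12 (10 of 13 under the strict filter, which leaves out the dimmer USP18 probe), except without turning the ratios, which gave 3 above and 11 below 0. Without turning, the STAT2 probes read -0.32, -0.22, -0.034, -0.010 and -0.096, the dimmer IRF3 probe 0.10, IRF7 -0.18, USP18 -0.23 and -0.0039 and EIF2AK2 -0.88; this setting follows the protocol text and goes against the dye labels. Of the IRF3 probes, the brighter was -0.0064 with median centring and -0.031 to 0.17 with an array left out, and the dimmer was 0.0066 on the shared slide and -0.14 to 0.049 with an array left out. All other member ratios kept their sign. Mean pixel signals were not run, since the files used here give medians. Each ratio already pairs treated with untreated RNA on 1 array, and with 1 group of ratios no further pairing was modelled. Cause was not tested for any of these changes.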
